A study of Apis mellifera with 3 samples.

Results

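Antimicrobial peptides and lysozymes are the small secreted proteins with which honeybees attack bacteria and fungi. They were followed here as all transcript sequences whose best protein match was described as a defensin, abaecin, hymenoptaecin, apidaecin or lysozyme. Of 21441 sequences read in any library, 11 met this rule, and they matched 9 proteins. These were 2 defensin, 1 abaecin, 2 hymenoptaecin, 3 apidaecin and 3 lysozyme sequences.

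The libraries came from worker bees of the subspecies Apis mellifera carnica, full sisters from queens inseminated by instrument with sperm of an isolated drone. The labels call the pools winter, spring and retired bees, and give them 3, 6 and 9 days after emergence. The labels leave unclear whether a day is an age or counts a collection, and season, task and labelled day cannot be told apart. RNA of 30 bees was pooled into the single library of each group (n = 1). No difference could be tested across samples, and none has a replicate behind it. The tissue is labelled as hypopharyngeal glands, the head glands that secrete royal jelly proteins and honey enzymes, while the design text speaks of pooled heads.

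Insects make antimicrobial peptides mainly in the fat body, in blood cells and in epithelia. In flies, cell wall fragments of microbes act through the Toll and Imd pathways, whose NF-kappaB factors switch the peptide genes on, and bees carry counterparts of these pathways. Most of the peptides are nearly silent in healthy bees and are induced by infection. Defensin-1 is an exception in the bee, since the glands of the head also make it without infection, and the peptide is found in royal jelly (as royalisin) and in honey. Lysozymes are enzymes that cut the peptidoglycan of bacterial walls.

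The libraries held 3.85 M (winter), 3.29 M (spring) and 3.18 M (retired) uniquely mapped reads. Levels are in RPKM, reads scaled by the length of the sequence and the total of the library, which allows levels of sequences of different length to be compared. Folds are ratios of reads per library total, and brackets hold exact 95% intervals. These intervals cover counting error only, not differences between bees or between libraries, and PCR copies of 1 molecule may stand among the reads. A count of 3 reads was taken as the floor, which is 1.14, 1.33 and 1.38 RPKM in the 3 libraries on the defensin-1 sequence. The gland products royal jelly protein and glucose oxidase took 8.004%, 22.1% and 19.7% of the reads in the winter, spring and retired libraries, so every other sequence was measured against a total in which these differ. Markers of other tissues were read in every library. The 23 neuron marker sequences summed to 2720, 2159 and 2148 RPM (reads scaled to a library of 1 M reads), and no sequence matched the blood cell markers hemolectin or eater. In pools of tissue, fewer cells of a type and less RNA per cell cannot be told apart.

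Defensin-1 stood far above the other members in every library, and it was lowest in the spring library. Abaecin showed the same order of libraries at a much lower level. A lowest value in spring was common, with 40.5% of the 12208 sequences that reached 10 RPKM in a library, and a highest value in spring was found for 21.0%. Both shares are on the scale of library totals and may change with the scale. Hymenoptaecin was read 8 times in the winter library and 45 and 40 times in the others, and 1 of the 2 sequences matching lysozyme c-1 was highest in spring. The remaining lysozymes varied less between the libraries, and defensin-2 and the apidaecins were close to the floor.

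Defensin-1 (Def1, sequence TC23147) is a peptide with disulphide bridges that acts mainly on Gram-positive bacteria. Winter bees gave 11323 reads of it, spring bees 5151 and retired bees 12835. These correspond to 4289, 2284 and 5889 RPKM. It was the 14th, 30th and 11th sequence of each library by RPKM, in that order, and took 0.294%, 0.157% and 0.404% of all reads. The level in the spring library was 1.88-fold lower than in the winter library (1.82 to 1.94). The retired library held 2.58-fold more than the spring library (2.50 to 2.66) and 1.37-fold more than the winter library (1.34 to 1.41). The comparisons share libraries, and the spring value enters both the lower and the higher fold. Rescaling to a median ratio of 1 over all sequences raised ratios of spring over winter 1.20-fold, of retired over spring 1.02-fold and of retired over winter 1.23-fold. Defensin-1 was then 1.57-fold lower in spring than in winter. Defensin-1 made up 96.3%, 91.8% and 96.8% of all member reads, so sums over the members describe defensin-1.

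Abaecin (TC23893) is a proline-rich peptide of bees and bumblebees. It had 76 winter, 23 spring and 100 retired reads, or 52.8, 18.7 and 84.2 RPKM. The spring library was again lowest, 2.82-fold below the winter library (1.75 to 4.72). The retired library stood 4.50-fold above the spring library (2.84 to 7.42) and 1.59-fold above the winter library (1.17 to 2.18). The ratio of 2 members within 1 library does not depend on the library total. Per length, defensin-1 stood 81.2-fold above abaecin in the winter library (64.8 to 103), 122-fold in the spring library (81.3 to 193) and 70.0-fold in the retired library (57.5 to 86.1). Abaecin gained on defensin-1 between the spring and the retired library, where this ratio was 1.74-fold lower (1.10 to 2.88). The change of the ratio had an interval that included 1 in spring over winter (0.931 to 2.51) and in retired over winter (0.630 to 1.17).

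**Figure D1:**
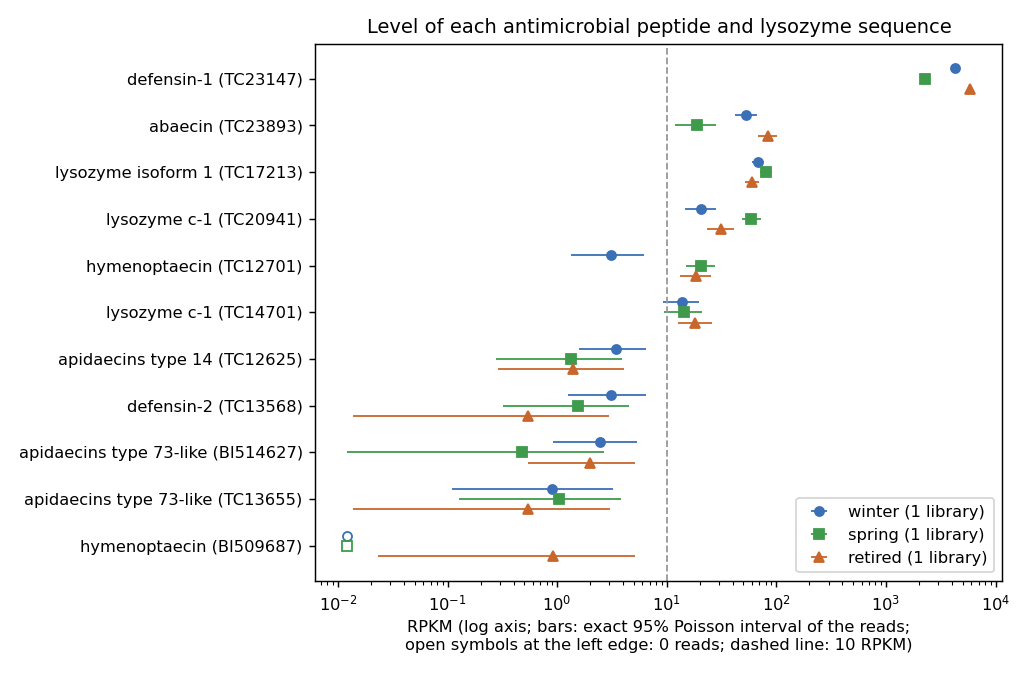
RPKM of each member sequence on a log axis, with 1 symbol per library and bars for the exact 95% Poisson interval of its reads; the dashed line marks 10 RPKM and open symbols mark 0 reads. Defensin-1 stands at 4289 RPKM in winter, 2284 in spring and 5889 in retired bees, and the next highest value of any member is 84.2 RPKM for abaecin in the retired library.

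Hymenoptaecin is a glycine-rich peptide that acts on Gram-negative and Gram-positive bacteria and is strongly inducible. Its main sequence (TC12701) had 8 winter, 45 spring and 39 retired reads, which are 3.13, 20.6 and 18.5 RPKM. A further fragment (BI509687) was listed with 1 read, in the retired library. Summed over both sequences, hymenoptaecin exceeded its winter level 6.58-fold in the spring library (3.07 to 16.2) and 6.06-fold in the retired library (2.80 to 14.98). Retired over spring gave a ratio of 0.920, with an interval that included 1 (0.586 to 1.44). The winter library was thus the low one, whereas for defensin-1 and abaecin it was the spring library. Reads of hymenoptaecin per read of abaecin were 0.105 in the winter library (0.0439 to 0.218), 1.96 in the spring library (1.16 to 3.39) and 0.400 in the retired library (0.270 to 0.583). No 2 of these 3 intervals overlapped, so these peptides differed between the libraries in unlike ways, and the library total does not enter this ratio.

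A list by the words virus, viral, RNA-dependent RNA polymerase and polyprotein held 13 sequences. It had 2880 winter, 15790 spring and 1729 retired reads. The spring library stood apart in the 3 of them matching an RNA-dependent RNA polymerase, and the rest of the list is not described singly. The most read of the 3 matched an entry recorded from a spider. These 3 sequences had 13743 reads in the spring library, against 4 in the winter and 2 in the retired library. Hymenoptaecin had 45 reads in the spring library and 40 in the retired library, where these sequences had 2. The part of these sequences in the spring levels of the peptides was not tested.

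The 3 lysozyme sequences matched 3 different proteins. A pair of them, TC20941 and TC14701, is described as lysozyme c-1 and carries an orthology entry for lysozyme, the only members with such an entry. The third, TC17213, matched a lysozyme protein of the gene LOC409663 and has none. TC20941 had 40 winter, 98 spring and 50 retired reads, or 20.7, 59.3 and 31.3 RPKM. It was highest in the spring library, 2.87-fold above winter (1.97 to 4.25), and 1.89-fold lower in the retired than in the spring library (1.33 to 2.72). Its interval for retired over winter included 1 (0.979 to 2.35), but not after the rescaling, which gave 1.86. Defensin-1 stood 208-fold above TC20941 per length in the winter library (152 to 291), 38.5-fold in the spring library (31.6 to 47.6) and 188-fold in the retired library (143 to 254). The spring ratio thus lay apart from the other two, which overlapped.

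The other lysozymes differed little. TC14701 had 30, 27 and 33 reads in the winter, spring and retired libraries, or 13.7, 14.4 and 18.3 RPKM. All of its intervals included 1, from 1.05 for spring over winter (0.603 to 1.83) to 1.33 for retired over winter (0.788 to 2.26), so a difference of less than about that width was not detectable at this depth. TC17213, the most read lysozyme, had 257, 259 and 187 reads, or 67.9, 80.1 and 59.9 RPKM. It was 1.34-fold lower in the retired than in the spring library (1.10 to 1.62), and its intervals for spring over winter (0.989 to 1.41) and retired over winter (0.726 to 1.07) included 1. The retired over winter ratio of 0.881 was 1.08 once all sequences were rescaled to a median ratio of 1, so its direction depends on the scale. The spring over winter ratio of 1.18 was then 1.41, with an interval above 1 (1.18 to 1.68). Summed, the lysozymes had 327 winter, 384 spring and 270 retired reads, which are 85.0, 117 and 85.0 RPM. Their sum gave a ratio of 1.37 for spring over winter (1.18 to 1.60) and of 1.00 for retired over winter (0.848 to 1.18).

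Defensin-2 and the apidaecins were near the floor, with fewer than 10 reads per protein in every library. Defensin-2 (Def2, TC13568), the other defensin gene of the bee, had 7, 3 and 1 reads in the winter, spring and retired libraries. Apidaecins are short proline-rich peptides, cut from precursors that hold several copies in a row, and act mainly on Gram-negative bacteria. Apidaecin type 14 (Apid1, TC12625) had 9, 3 and 3 reads. The type 73-like apidaecin had 8, 3 and 5 reads over its sequences BI514627 and TC13655. Every ratio of these 3 proteins had an interval that included 1. On a log scale the widest ran from 0.00657 to 4.30 for defensin-2 in retired over spring. At this depth no difference was detectable. Defensin-1 was read 11323 times in the library where defensin-2 was read 7 times.

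**Figure D2:**
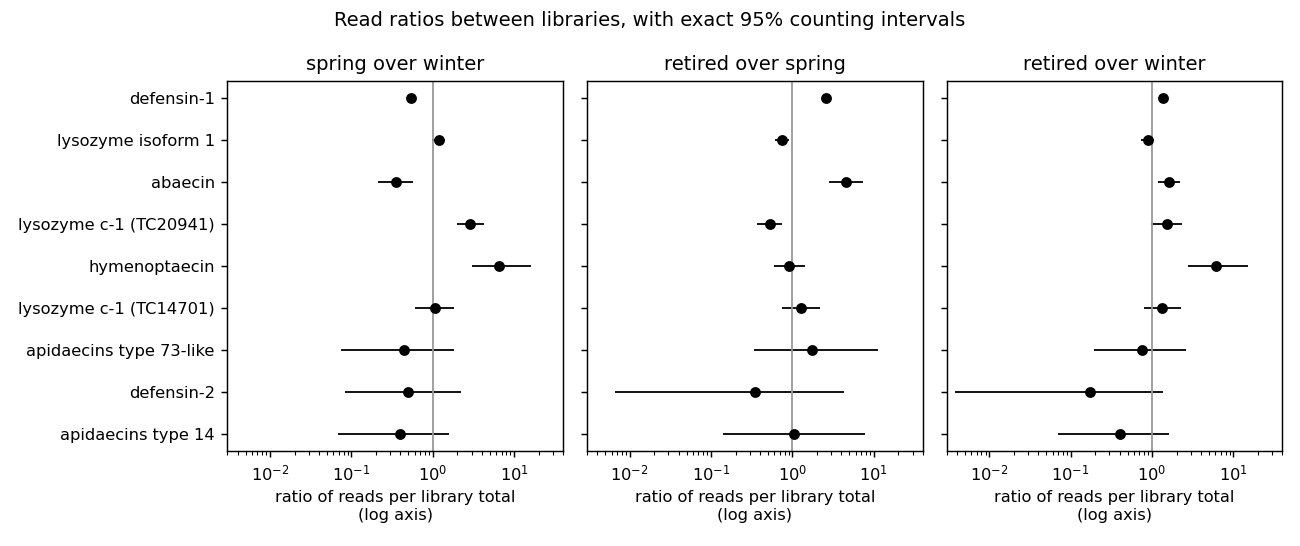
Ratio of reads per library total for each of the 9 proteins on a log axis, with a panel per pair of libraries; bars are exact 95% counting intervals and the vertical line marks 1. Defensin-1 and abaecin lie below 1 in spring over winter (0.532 and 0.354) and above 1 in retired over spring (2.58 and 4.50), while hymenoptaecin (6.58) and lysozyme c-1 TC20941 (2.87) lie above 1 in spring over winter.

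Ordered by RPKM in the winter library, defensin-1 was followed by lysozyme TC17213 (59.9 to 76.8), abaecin (41.6 to 66.1), lysozyme c-1 TC20941 (14.8 to 28.1) and lysozyme c-1 TC14701 (9.24 to 19.6), with all other members at or below 3.44 RPKM. The intervals of TC17213 and abaecin overlapped, as did those of the lysozyme c-1 pair. In the spring library the order after defensin-1 was TC17213 (70.7 to 90.5), TC20941 (48.1 to 72.2), hymenoptaecin (15.03 to 27.6), abaecin (11.9 to 28.1) and TC14701 (9.51 to 21.0), the intervals of the lysozymes at the head overlapped, and the last 3 overlapped one another. In the retired library abaecin came second (68.5 to 102), with a lower bound just under the upper bound of TC17213 (51.6 to 69.1). TC20941 (23.2 to 41.2), hymenoptaecin TC12701 (13.1 to 25.3) and TC14701 (12.6 to 25.6) followed, each overlapping the next. In each library the interval of abaecin met that of at least 1 other member, so its exact place is not resolved.

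Over single sequences, a difference was counted when (RPKM + 1) differed at least 2-fold and the sequence reached 10 RPKM in 1 of the 2 libraries. The added 1 understates differences of low sequences. Of the 11 members, 6 could be counted in each comparison, and 5 stayed under 10 RPKM everywhere. Hymenoptaecin TC12701 could be counted only through its spring and retired levels. In spring over winter, 2 of the 6, hymenoptaecin TC12701 (log2 difference 2.39) and lysozyme c-1 TC20941 (1.48), were at least 2-fold higher, against 2.14% of all 12038 sequences. In the same comparison 1, abaecin (-1.45), was at least 2-fold lower, against 4.76%, and defensin-1 (-0.91) missed the threshold. In retired over spring, abaecin (2.11) and defensin-1 (1.37) were at least 2-fold higher, against 1.81% of 11413 sequences, and 0 members were lower, against 1.96%. In retired over winter, hymenoptaecin TC12701 (2.24) was higher, against 1.31% of 11955 sequences, and 0 were lower, against 5.43%. With 6 sequences these shares describe the named members and nothing wider. Taking the comparisons in this order, the median log2 difference of the 6 was 0.15, 0.08 and 0.52, against -0.26, -0.02 and -0.26 over all sequences.

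**Figure D3:**
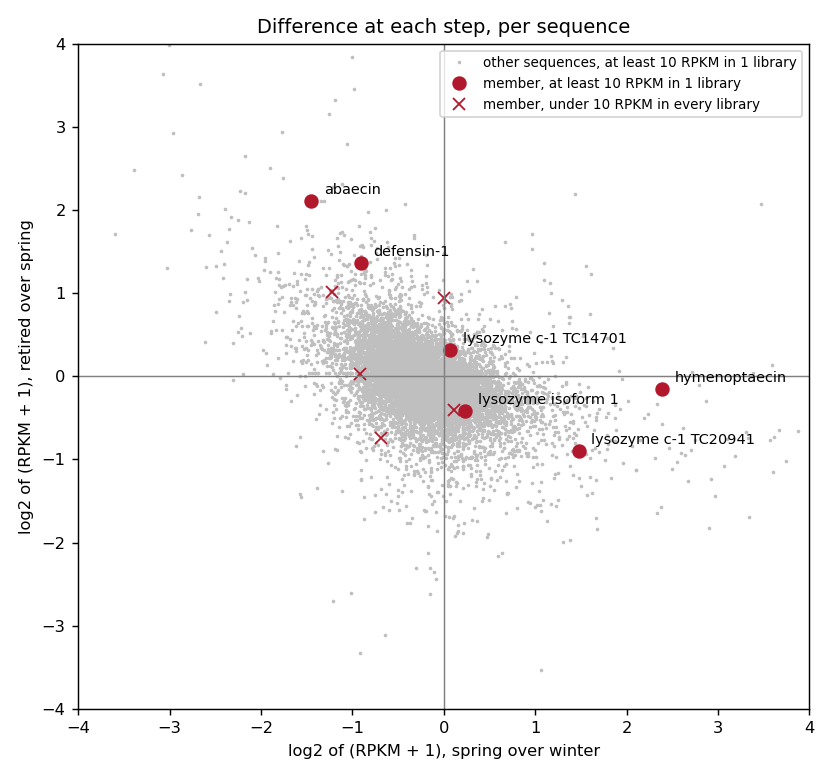
Log2 difference of (RPKM + 1) in retired over spring against that in spring over winter, 1 point per sequence; red circles are the 6 members with at least 10 RPKM in a library, red crosses the 5 below it and grey dots 12202 other sequences, of which 23 lie outside the axes. Both axes use the spring library, which alone can tilt the cloud to the lower right; abaecin and defensin-1 sit in the upper left, and hymenoptaecin and lysozyme c-1 TC20941 to the right.

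Among 3573 described sequences with at least 100 reads in every library, those nearest to defensin-1 in both steps (spring over winter and retired over spring) were sought by the distance between pairs of log2 ratios. This likeness rests on 3 libraries, and 13 sequences lay within 0.5 of defensin-1. The nearest was a dehydrogenase/reductase SDR family member 11-like sequence (TC20461, distance 0.096), with levels of 117 (winter), 63.5 (spring) and 154 RPKM (retired). An acyl-CoA Delta(11) desaturase-like sequence (TC15577) followed at 0.13, with 311, 157 and 435 RPKM. The others of the nearest 5 were myosin regulatory light chain 2 (TC15188, 0.21), a phospholipase B1-like sequence (TC17076, 0.23) and troponin C type IIIa (TC18427, 0.31). Since myosin and troponin are muscle proteins, the markers of other tissues are given beside defensin-1. The 36 muscle marker sequences were 1.32-fold lower in spring than in winter (1.27 to 1.38) and 1.36-fold higher in retired than in spring (1.31 to 1.43). The 20 photoreceptor markers were 1.19-fold lower (1.11 to 1.28) and then 1.78-fold higher (1.66 to 1.91). Other lists ran differently. The neuron list was 1.26-fold lower in spring than in winter (1.22 to 1.30), with an interval that included 1 for retired over spring (0.962 to 1.03). The gland products were 2.76-fold higher in spring than in winter (2.75 to 2.77) and then 1.12-fold lower (1.12 to 1.13). With the median ratio set to 1, the muscle list was 1.11-fold lower in spring than in winter and the photoreceptor list no longer lower (ratio 1.002), while both stayed higher in retired than in spring (1.40-fold and 1.82-fold). The part of these tissues in the difference of defensin-1 was not tested.

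Markers of fat body and blood cells are given beside the peptides as well. The 14 fat body marker sequences summed to 2240, 1875 and 1634 RPM in the winter, spring and retired libraries, and 1 apolipophorin sequence (TC23177) held 6899 of their 8618 winter reads. Vitellogenin, the yolk protein, stood at 291, 65.4 and 58.2 RPM over 4 sequences, and hexamerin, a storage protein, at 78.5, 47.8 and 21.4 RPM over 5. The 15 blood cell marker sequences stood at 701, 561 and 596 RPM, 1.25-fold lower in spring than in winter (1.18 to 1.33), with an interval that included 1 for retired over spring (0.996 to 1.13). With the median ratio set to 1, the blood cell list was 1.04-fold lower in spring than in winter. The fat body list was then not lower in spring (ratio 1.002). Values by word are on the scale of library totals and were not rescaled. By word, scavenger receptor (237, 152 and 248 RPM), draper (124, 106 and 111) and hemocyte (52.5, 35.0 and 37.8) were lowest in spring. Croquemort (245, 235 and 171 RPM) and nimrod (42.9, 32.2 and 27.7) were lowest in the retired library. The part of these tissues in the levels of the peptides was not tested. Glucose oxidase, an enzyme of the glands that makes hydrogen peroxide in honey, summed to 10013, 9716 and 15446 RPM over 4 sequences. Royal jelly proteins summed to 70022, 211374 and 181171 RPM over 53 sequences, so the spring library was low for defensin-1 and highest for them.

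Recognition proteins and members of the Toll, Imd and JAK/STAT pathways were read in every library. Of 38 sequences on a list made by words, those that could be counted numbered 23 for the pair of spring and winter, 20 for retired and spring and 22 for retired and winter. None of them differed 2-fold in RPKM + 1, in either direction, in any of these comparisons, nor with the median ratio set to 1. Over all sequences 1.31% to 5.43% did so per comparison and direction, so a count of 0 in a list of this size sets it apart from nothing. No sequence on the list was described as relish, immune deficiency, dredd or domeless, though these were among its words. The list thus covers its pathways only in part. It was matched by letters and also took in a tectonin beta-propeller protein, a toll-interacting protein and FAS-associated factors. Its median log2 difference was -0.21, 0.01 and -0.25 in the 3 comparisons, close to that of all sequences. The largest differences in spring over winter included dorsal, the NF-kappaB factor of the Toll pathway. Its isoform B (TC16366) had 335, 165 and 139 reads in the winter, spring and retired libraries and was 1.73-fold lower in spring than in winter (1.44 to 2.10). Isoform A (TC12323), with 498, 294 and 277 reads, was 1.45-fold lower (1.25 to 1.68). After the rescaling these were 1.45-fold and 1.21-fold, with intervals still apart from 1. Peptidoglycan-recognition protein SA (TC21868), which in flies binds bacterial wall fragments upstream of Toll, had 28, 42 and 35 reads and was 1.76-fold higher in spring than in winter (1.06 to 2.94), and 2.10-fold after the rescaling (1.27 to 3.52), as a ratio of reads without the added 1. A fragment matching signal transducer and activator of transcription 5B (BI508838), with 72, 38 and 41 reads, was 1.62-fold lower (1.08 to 2.47), and its interval included 1 after the rescaling (0.486 to 1.11 for the ratio). In retired over spring the largest were a lysM domain protein (NP9550902), a FAS-associated factor 2-B-like sequence (NP9553479), the Toll pathway kinase pelle (NP9545760) and its adaptor MyD88 (NP9551609). Of these 4, the FAS-associated factor exceeded its spring level 1.26-fold (1.03 to 1.55) and the intervals of the other 3 included 1. In retired over winter dorsal isoform B (TC16366) was 1.99-fold lower (1.63 to 2.44) and isoform A 1.48-fold lower (1.28 to 1.73), and the intervals of the other 2 largest, BI508838 and TC21868, included 1, though not for TC21868 after the rescaling (1.10 to 3.17). A further sequence matching dorsal isoform B (TC17095), under 10 RPKM everywhere and named after its values were seen, had 21, 7 and 3 reads. It was 2.56-fold lower in spring (1.05 to 7.14) and 5.78-fold lower in retired than in winter (1.73 to 30.3), and the first of these intervals included 1 after the rescaling. Other dorsal matches under 10 RPKM everywhere were TC19320 (embryonic polarity protein dorsal), with 9, 4 and 6 reads, and CK629733 (isoform A), with 1, 0 and 2. All intervals of TC19320 and CK629733 included 1.

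The length covered by reads shows which part of a member its count rests on. Sequences with 1 read were covered over a median of 49 bases, the length of a read. Defensin-1 was covered over 382, 379 and 379 of its 686 bases in the winter, spring and retired libraries, although its reads ranged from 5151 to 12835. In the winter library the 25 sequences with 4096 to 8191 reads were covered over a median of 91.3% of their length, against 55.7% for defensin-1. Defensin-1 had 11323 winter reads and so lay above this bin, the most read one with at least 20 sequences. The 9 winter reads of apidaecin type 14 covered 72 of 680 bases, and of 335 sequences with 9 reads only 4 were covered over fewer bases. The 6 winter reads of the apidaecin BI514627 covered 59 of 630 bases, where 401 sequences with 6 reads had a median of 175 bases. The 8 winter reads of hymenoptaecin TC12701 covered 263 bases, more than the median of 203 for sequences with 8 reads. Its 45 spring reads covered 325 bases and its 39 retired reads 298, below the medians of 464 and 460 for sequences with as many reads. Only uniquely mapped reads were counted, so reads that match several near-identical sequences, as copies within the apidaecin family could give, are not in the values, and the levels of apidaecins are uncertain for that reason. Whether this sets the short covered lengths was not tested.

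**Figure D4:**
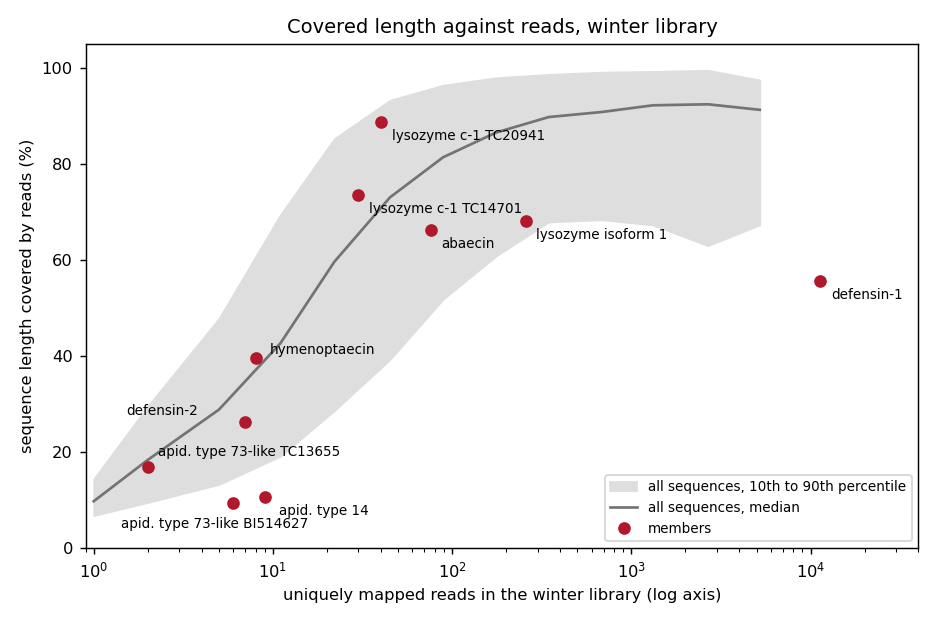
Percent of sequence length covered by reads against uniquely mapped reads in the winter library on a log axis; red points are members, the grey line is the median of all sequences in bins of reads with at least 20 sequences and the band runs from the 10th to the 90th percentile. Defensin-1 (55.7% at 11323 reads) lies past the last bin and below the 10th percentile of that bin (67.3%). The apidaecins TC12625 and BI514627 (9 and 6 reads on 72 and 59 bases) lie low for their reads, and both lysozyme c-1 sequences lie above the median.

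What the members share beyond their names was limited. The match of 7 of the 11 sequences, on 6 proteins, was found in a gene table of the assembly Amel_HAv3.1, which served for names and neighbours only. Defensin-1 and hymenoptaecin lie on the same linkage group with 262 genes between them, and apidaecin type 14 and defensin-2 share another with 68 genes between them, so none of these pairs are neighbours. Of the first pair, defensin-1 was lowest in the spring library and hymenoptaecin in the winter library.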

How the data were processed

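Poly(A) RNA was sequenced on an Illumina HiSeq instrument, per the labels' protocols. The authors deposited 1 table per library, which gives the count of uniquely mapped reads of each sequence, its length, the fraction of length covered (coverage), RPKM and a best protein match, per the file headers. The deposited RPKM equal count divided by length and library total, which was checked for every sequence. For the sequence set, aligner and versions, the sources used here give nothing. Sequences not listed were taken as 0. Tables were joined by sequence identifier, members were found by 5 words in the match text, and reads were summed over sequences with the same match. Every member sequence is described. Non-members were named by rule, as the 5 sequences nearest to the most read member and up to 4 of the pathway list per comparison. The dorsal matches under 10 RPKM and the RNA-dependent RNA polymerase matches were named outside this rule. The members and lists were chosen with earlier results of these data known. Folds have exact conditional binomial 95% intervals and levels exact Poisson intervals. A 2-fold difference used RPKM + 1 and a minimum of 10 RPKM in 1 of the 2 libraries, and counting was checked on simulated counts. Alternatives changed scale, summing, pseudocount, minimum and threshold. Scripts ran under Python 3.11.15 with scipy 1.17.1 for intervals, pandas 2.3.3 and numpy 2.4.6 for tables and matplotlib 3.10.9 for plots.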

Additional observations from a re-analysis of the deposited data

How the results depend on the processing

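No paired analysis was possible because each group has 1 library. Leaving out 44 ratios that could not move because 1 sequence held all reads of the protein, 91 protein ratios were recomputed under 5 alternatives. None of those with an interval apart from 1 changed direction, and 83 stayed within their counting interval. For the 3 proteins near the floor these intervals are so wide that staying within them says little. With its most read sequence alone, the type 73-like apidaecin went from 1.72 to 4.14 in retired over spring and from 0.439 to 0.195 in spring over winter. Defensin-1 in spring over winter was 0.637 under median-of-ratios scaling and 0.616 without royal jelly and the most read sequences, against 0.532. In retired over winter it was 1.68 and 1.59, and 1.43 as TPM, against 1.37, and in retired over spring 2.68 as TPM, against 2.58. Under median-of-ratios scaling, lysozyme TC17213 was 1.41 in spring over winter and 1.08 in retired over winter, and without royal jelly and the most read sequences 1.36 and 1.02. Lysozyme c-1 TC20941 in retired over winter, 1.51 with an interval that included 1, was 1.86, 1.76 and, as TPM, 1.58, with intervals above 1. An alternative chosen after the data were seen, median-of-ratios scaling for the pathway list, left 0 sequences past 2-fold. The number of sequences that could be counted changes with the minimum, so no shares are given for those settings, and the counts over all sequences follow. At 4-fold that number is unchanged. Of all 12038 sequences in spring over winter, 61 were then higher and 49 lower, and of 11413 in retired over spring 32 were higher. Member sequences at least 2-fold higher became 1 in spring over winter at a minimum of 50 RPKM or at 4-fold. In retired over spring they became 1 at 4-fold and 3 at a minimum of 1 RPKM or none, and in retired over winter 0 at 50 RPKM. Those lower became 2 in spring over winter and 1 in retired over winter at a minimum of 1 RPKM or none, and 0 in spring over winter at 4-fold. The word rule gave 11 members with or without the orthology text.

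Over all sequences, those higher in spring over winter (258) became 708 at a minimum of 1 RPKM or none, 119 at 50 RPKM, 427 with median-of-ratios scaling and 61 at 4-fold. Those lower (573) became 291 with a pseudocount of 5, 1663 at 1 RPKM or none, 155 at 50 RPKM, 278 with median-of-ratios scaling and 49 at 4-fold. With median-of-ratios scaling those higher thus outnumbered those lower in spring over winter, the reverse of the order on library totals. In retired over spring those higher (207) became 110, 865, 49 and 32 at a pseudocount of 5, a minimum of 1 RPKM or none, 50 RPKM and 4-fold, and those lower (224) became 104, 1150, 32 and 23. In retired over winter those higher (157) became 104, 528, 63 and 44 at the same settings and 320 with median-of-ratios scaling, and those lower (649) became 301, 1980, 123 and 41, and 296 with that scaling. The fewer reads of hymenoptaecin, abaecin and the lysozyme c-1 pair limit their precision more than that of defensin-1, and a single library per group limits all of them.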
